A study of Mus musculus with 2 samples.

Results

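Mir652, Mir139, Mir151 and Mir191 are among the microRNA genes with the most uniquely mapped reads in the newborn mouse heart, and Mir425 is the close neighbour of Mir191 on chromosome 9. These 5 genes, of 2202 microRNA genes counted, were chosen by their counts in these same libraries and by their place within other genes, with Mir425 added as a neighbour. Their levels are therefore given as a description, with no test. The data came from 2 hearts of female B6CASTF1/J mice, an F1 hybrid strain, taken 4 days after birth. Biological replicate 1 was the animal numbered 3 and biological replicate 2 the animal numbered 4, and the labels gave both hearts the same donor entry. Both hearts belonged to the same group, with RNA below 30 nt sequenced from whole heart tissue, and no other age, sex, tissue or treatment was compared.

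A microRNA is cut from a hairpin in a longer primary transcript, first by Drosha in the nucleus and then by Dicer in the cytoplasm, which leaves a duplex of 2 arms of which 1 is usually retained. Bases 2 to 8 of the retained strand, the seed, pair with target messenger RNAs and lower their translation and stability. Many hairpins lie inside other genes and can be made from the host's primary transcript, so the level of the microRNA often, though not always, follows the activity of the host's promoter. The deposited counts are per hairpin gene, and the arms were not counted apart.

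The mature sequences are shown because the genes were counted through reads of this length, and because a sequence found at several places would lose reads that map to more than 1 place. Of the 5 genes, 4 were matched by symbol in the RefSeq microRNA table (build GRCm38.p6), and Mir151 is named only. The sequences are written 5′ to 3′ with the seed in capitals.
mmu-miR-652-5p: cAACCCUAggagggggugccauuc
mmu-miR-652-3p: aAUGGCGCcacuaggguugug
mmu-miR-139-5p: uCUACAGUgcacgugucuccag
mmu-miR-139-3p: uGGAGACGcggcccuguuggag
mmu-miR-191-5p: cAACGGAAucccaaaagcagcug
mmu-miR-191-3p: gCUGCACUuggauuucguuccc
mmu-miR-425-5p: aAUGACACgaucacucccguuga
mmu-miR-425-3p: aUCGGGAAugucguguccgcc

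The 8 mature strands had 8 different seeds, so no pair among these 4 genes shares a seed family. The seeds of Mir151 were not compared. In the 1738 mature sequences of the RefSeq table, 7 of the 8 seeds occurred in no other microRNA gene. The seed of miR-425-5p, AUGACAC, was also that of miR-489-3p, and Mir489 had 0 counts in both libraries. When both arms of each hairpin were searched on both strands of the 141767 GENCODE M21 transcripts, Mir652 and Mir139 matched their own hairpin and no other gene. The arms of Mir425 matched its own hairpin and the long non-coding RNA 4833445I07Rik, which contains it. Those of Mir191 matched its own hairpin, the same long RNA, and Gm24083, an annotated microRNA gene on the opposite strand. The longest stretch shared with any other RefSeq hairpin was 10 nt for Mir652, 11 nt for Mir139, 10 nt for Mir191 and 12 nt for Mir425. Sequence outside annotated transcripts was not searched here.

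The hairpins themselves differed in length and predicted stability. They are printed with both mature arms in capitals, which shows the loop between the arms and the flanking stem.
Mir652 hairpin: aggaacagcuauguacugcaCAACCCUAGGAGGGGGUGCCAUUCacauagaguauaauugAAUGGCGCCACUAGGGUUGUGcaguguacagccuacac
Mir139 hairpin: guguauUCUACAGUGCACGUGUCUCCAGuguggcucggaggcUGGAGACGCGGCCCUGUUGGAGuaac
Mir191 hairpin: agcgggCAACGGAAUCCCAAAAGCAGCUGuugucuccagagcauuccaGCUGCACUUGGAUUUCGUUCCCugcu
Mir425 hairpin: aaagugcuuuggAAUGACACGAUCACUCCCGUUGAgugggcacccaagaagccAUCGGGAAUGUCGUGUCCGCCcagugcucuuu

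The predicted minimum free energy per nucleotide was −0.524 kcal/mol for Mir139, −0.50 for Mir652, −0.473 for Mir191 and −0.373 for Mir425, against a median of −0.434 over 322 hairpins in the table whose genes were detected, that is, had 10 counts or more in both libraries. Mir425 was thus the hairpin of the 4 with the weakest predicted fold, and 81.1% of the 322 hairpins folded more stably per nucleotide. The share of G and C was 58.8% for Mir139, 54.1% for Mir191 and for Mir425 and 50% for Mir652, against a median of 51.1%.

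Of the 5 genes, 3 lay in introns of protein-coding genes on the same strand. Mir652 (ENSMUSG00000076011.1, mm10 chromosome X, 142739000 to 142739097, plus strand) lay in intron 2 of Tmem164, which encodes a transmembrane protein. That intron of 69.1 kb held the hairpin 56.0 kb after its upstream exon and 12.9 kb before its downstream exon. Mir139 (ENSMUSG00000065446.1, chromosome 7, 101475376 to 101475443, plus strand) lay in intron 2 of Pde2a, the gene of a phosphodiesterase that is stimulated by cGMP. The hairpin stood 23.9 kb into that 29.9 kb intron, and a second annotated gene, Gm45837, spanned it on the same strand. Mir151 (ENSMUSG00000065612.1, chromosome 15, 73254815 to 73254882, minus strand) lay in intron 23 of Ptk2, the gene of focal adhesion kinase, 2.15 kb after the upstream exon and 168 kb from the start of the transcript. No annotated transcript of Tmem164, Pde2a or Ptk2 had any of the 3 hairpins in an exon.

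**Figure D1:**
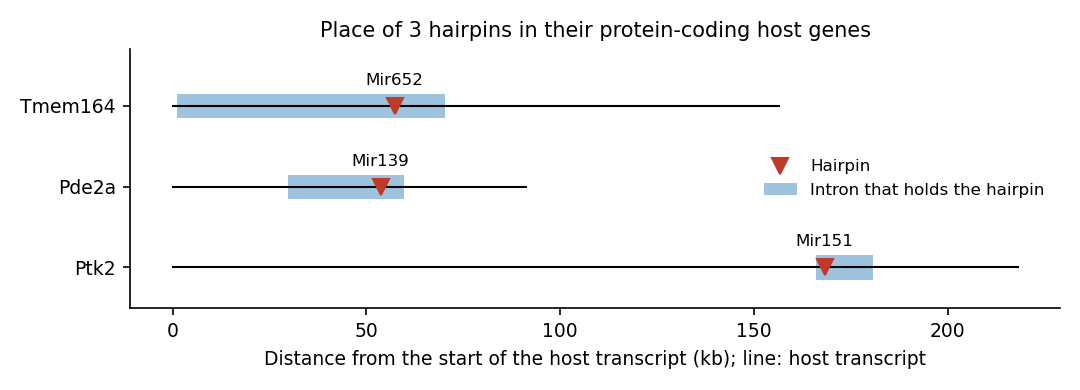
Place of the Mir652, Mir139 and Mir151 hairpins (red triangles) in kb from the start of the host transcript with the most exonic sequence; the black line is that transcript and the blue bar the intron that holds the hairpin. Mir151 sits 168 kb into Ptk2, close to the upstream end of a 14.6 kb intron, whereas Mir652 lies in a 69.1 kb intron near the start of Tmem164.

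The other pair did not have a protein-coding host in this annotation, which goes against the grouping of all 5 as hairpins inside protein-coding genes. Mir191 (ENSMUSG00000105497.1, chromosome 9, 108568319 to 108568392, plus strand) and Mir425 (ENSMUSG00000065579.1, 108568777 to 108568861, plus strand) both lay in the single exon of transcript 4833445I07Rik-201. That gene is a long intergenic non-coding RNA of 1642 nt, and the hairpins are 384 nt apart within it. Of its 2 annotated transcripts, both spanned Mir191, with the hairpin in an exon of only 1, and only 1 spanned Mir425. Dalrd3, the gene whose human counterpart is known as the host of both, began 1024 nt after the end of Mir425. Ndufaf3, which encodes an assembly factor of mitochondrial complex I, began 884 nt to the left of Mir191 and ran away from it on the minus strand.

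**Figure D2:**
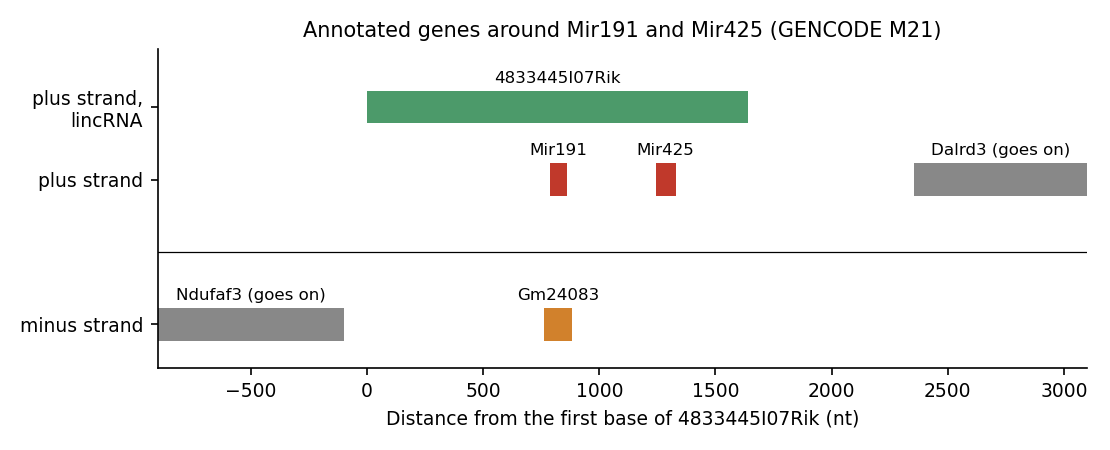
Annotated genes around Mir191 and Mir425, in nt from the first base of the lincRNA 4833445I07Rik, with plus-strand genes above the black line and minus-strand genes below it. Both hairpins lie inside the lincRNA, Gm24083 lies across Mir191 on the other strand, and Dalrd3 starts beyond the end of the lincRNA.

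The library of replicate 1 held 6417302 own-strand counts over microRNA genes and that of replicate 2 held 5662222. The multi-mapped reads, which are in no gene's count, made up 39.6% of all reads in replicate 1 and 43.2% in replicate 2. Levels are given as CPM, a gene's own-strand counts scaled to a library total of 1000000. Heart muscle markers were present in both libraries, with Mir208a, Mir208b and Mir499 summing to 20990 CPM in replicate 1 and 19150 CPM in replicate 2. Their members moved in opposite ways, with Mir208a at 10883 CPM in replicate 1 and 6019 CPM in replicate 2 and Mir499 at 2653 CPM in replicate 1 and 7487 CPM in replicate 2. Of the 6 genes of the neuronal miR-124 and miR-9 list, 4 were at 0 in both libraries and none was detected. Both families have several gene copies, and reads that fit more than 1 copy are in no gene's count. These low counts therefore do not show that the microRNAs were absent. The libraries also differed in markers of other cells. The smooth muscle genes Mir143 and Mir145a summed to 47060 CPM in replicate 1 and 60330 CPM in replicate 2. The 2 erythroid genes summed to 489 CPM in replicate 1 and 126 CPM in replicate 2, and the endothelial gene Mir126a held 51829 CPM in replicate 1 and 73011 CPM in replicate 2. The fibroblast genes went in opposite ways, with Mir21a at 5250 CPM in replicate 1 and 19313 CPM in replicate 2 and Mir214 at 5595 CPM in replicate 1 and 2969 CPM in replicate 2. The 4 leukocyte genes were all detected and summed to 1301 CPM in replicate 1 and 872 CPM in replicate 2. Of the 4 epithelial genes, 3 were detected, and the list summed to 453 CPM in replicate 1 and 379 CPM in replicate 2. In both lists members moved in opposite ways. The liver gene Mir122 held 105 CPM in replicate 1 and 86.2 CPM in replicate 2. The part of these gaps in the results below was not tested, and in whole tissue fewer cells of a type and less RNA per cell cannot be told apart.

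Together the 5 genes held 382891 counts in replicate 1 and 239161 in replicate 2, which was 5.97% of the counts in replicate 1 (95% interval 5.95 to 5.99, exact Clopper-Pearson) against 4.22% in replicate 2 (interval 4.21 to 4.24). These intervals cover counting error only, and the gap between the hearts was far wider than either. The mean was 5.1% ± 1.23 (SD, n = 2). Mir652 and Mir139 accounted for most of both the counts and the gap.

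Mir652, an X-linked gene whose microRNA has been studied in mouse hearts under pressure overload, held 140060 counts or 21825 CPM in replicate 1 and 73379 counts or 12959 CPM in replicate 2. Its mean of 17392 ± 6269 CPM (SD, n = 2) was at rank 15 of 2202 genes. This and all ranks given here hold among reads mapped to a single place, since multi-mapped reads are not counted and a microRNA made from several similar copies may be undercounted. The level in replicate 1 was 1.68-fold that in replicate 2, and the rank was 13 in replicate 1 and 18 in replicate 2.

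Mir139, whose 5p strand is known to be reduced in several human cancers, followed Mir652 closely. It held 130961 counts or 20408 CPM in replicate 1 and 72806 counts or 12858 CPM in replicate 2, a mean of 16633 ± 5338 CPM (SD, n = 2) at rank 16. Like Mir652 it was higher in replicate 1, here 1.59-fold in CPM.

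Mir151, a gene of the mir-28 precursor family, held 58802 counts or 9163 CPM in replicate 1 and 49291 counts or 8705 CPM in replicate 2, a mean of 8934 ± 324 CPM (SD, n = 2) at rank 24. In CPM, which scales by total counts, its SD was 3.62% of the mean, against 36.0% for Mir652 and 32.1% for Mir139. With TMM-scaled library sizes, used for the test between the hearts, this contrast was smaller, at absolute log2 ratios of 0.26 for Mir151, 0.42 for Mir652 and 0.33 for Mir139.

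Mir191, which is expressed in many tissues and often used as a reference in PCR assays, held 46903 counts or 7309 CPM in replicate 1 and 38930 counts or 6875 CPM in replicate 2. Its mean was 7092 ± 306 CPM (SD, n = 2), at rank 29. Mir425, in the same long non-coding RNA gene, held 6165 counts or 961 CPM in replicate 1 and 4755 counts or 840 CPM in replicate 2. The mean of Mir425 was 900.2 ± 85.5 CPM (SD, n = 2), at rank 78. Mir425 was thus the least abundant of the 5 and the 1 gene of them below 1000 CPM in both libraries, yet it lay well above 75.2 CPM, the median of the 373 detected genes.

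**Figure D3:**
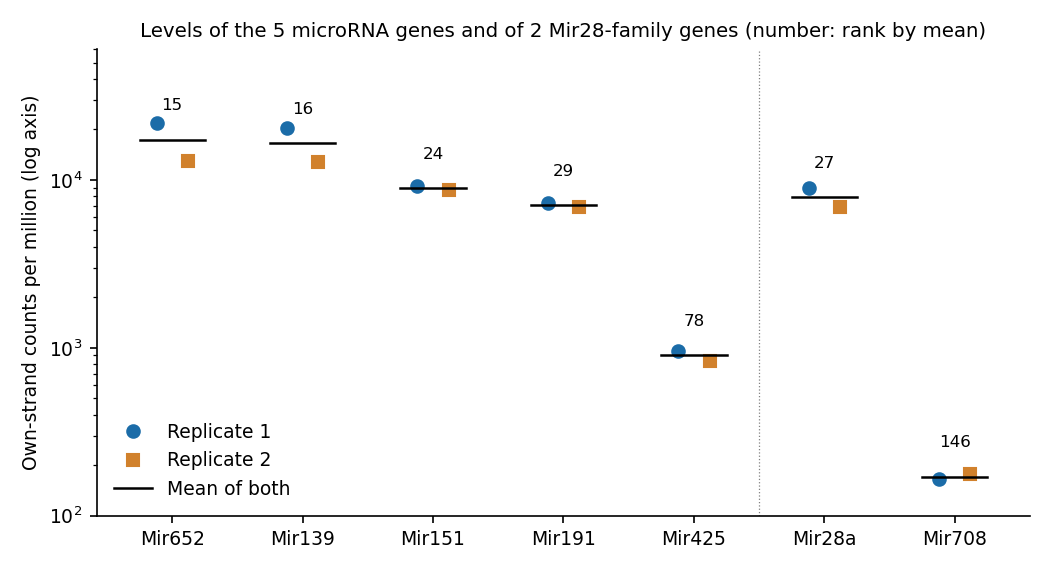
Own-strand CPM (log axis) of the 5 genes and, right of the dotted line, of Mir28a and Mir708, in replicate 1 (blue circles) and replicate 2 (orange squares), with the mean as a black line and the rank by mean above it. Mir652 and Mir139 were at 12858 to 21825 CPM and were higher in replicate 1, while Mir151 and Mir191 differed less between hearts in CPM, a contrast that is smaller with TMM scaling.

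The order of the 5 genes, from Mir652 down to Mir425, was the same in both libraries. Since the sequenced RNA was below 30 nt, shorter than any of the hairpins, counts were not divided by hairpin length. With that division Mir139, whose hairpin has 68 nt, would take rank 13, above Mir652 with 98 nt at rank 18. By mean CPM the genes next to Mir652 were Mirlet7b above it (22201 and 17669 CPM in replicates 1 and 2) and Mir139 below it. Mirlet7b exceeded Mir652 in both libraries. Mir30d, next below Mir139, held 10305 and 19617 CPM in replicates 1 and 2, so its order with Mir139 was opposite in the 2 hearts.

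Mir151 stood between Mir30e and Mir130a, and Mir191 between Mir125a and Mir744. In each of these 4 neighbouring pairs the order differed between the libraries, so the exact ranks of Mir151 and Mir191 do not go beyond the spread between hearts. Mir328 exceeded Mir425 in both libraries, with 1044 and 893 CPM in replicates 1 and 2, whereas Mir195a, next below, held 492 and 1257 CPM.

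All reads at the 5 genes came from the hairpin's own strand, with 0 counts on the opposite strand in both libraries. For a count of 0, 3 counts were taken as an approximate upper 95% limit (1-sided, not Clopper-Pearson) and divided by the own-strand count. This allows an opposite-strand share of up to 0.00214% at Mir652 and 0.0487% at Mir425 in replicate 1. In replicate 2 it allows up to 0.00409% and 0.0631%. Having 0 opposite-strand counts was the usual state, found in both libraries for 340 of the 373 detected genes.

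For Mir191 the strand decided whether the gene was seen at all. Gm24083, a microRNA gene on the minus strand (chromosome 9, 108568295 to 108568414), covers the Mir191 hairpin and 24 nt on its left. Gm24083 had 0 own-strand counts in both libraries, and its opposite-strand column held 46903 counts in replicate 1 and 38930 in replicate 2. These are exactly the own-strand counts of Mir191. In the column that ignores strand, both Mir191 and Gm24083 were at 0 counts in both libraries. Of the 373 detected genes, 22 were at 0 in that column in both libraries. They held 13.8% of the own-strand counts in replicate 1 and 13.4% in replicate 2, with Mir378a and Mirlet7e above Mir30e and Mir191 by mean level. The whole loss was larger, since genes that kept a few counts are not among the 22. Mir126a had 332605 own-strand counts in replicate 1 and 413403 in replicate 2, but 17 and 19 in that column. Mir652, Mir139, Mir151 and Mir425 had the same counts in both columns.

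The gap between the hearts was tested on each gene's counts with a two-sided exact binomial test, with library sizes scaled by TMM factors and Benjamini-Hochberg adjustment over 491 genes. Calls needed an adjusted p below 0.05 together with a gap of more than 2-fold. Since it compares 2 libraries of the same group with counting noise alone, it says how far these libraries differed and nothing of a condition. None of the 5 genes was called, against 55 of the 491 genes tested, or 11.2%. All 5 passed the adjusted p, the highest being 2.14e-06 for Mir425, and none reached a 2-fold gap. Of the 71 genes with at least 1000 CPM in each library, 9 were called.

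The log2 ratio of replicate 1 over replicate 2 was 0.42 for Mir652 (counting SE 0.0066) and 0.33 for Mir139 (counting SE 0.0067). It was −0.26 for Mir151 (counting SE 0.0088), −0.24 for Mir191 (counting SE 0.0099) and −0.14 for Mir425 (counting SE 0.028). The signs of the last 3 depended on the scaling, and with sizes set by total counts the ratios were 0.07 for Mir151, 0.09 for Mir191 and 0.19 for Mir425. Total-count scaling moved every gene up by 0.33 relative to TMM scaling, and Mir652 and Mir139 stayed positive under both, at 0.75 and 0.67 with total counts.

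The absolute log2 ratios of the 5 genes, with a median of 0.26, can be read beside a median of 0.44 over the 491 genes tested and of 0.38 over the 71 abundant ones. In this order Mir652 exceeded 48.7% of the genes tested, Mir139 39.9%, Mir151 30.5%, Mir191 29.3% and Mir425 18.1%. With a dispersion estimated from both libraries, which gave a biological coefficient of variation of 0.342, edgeR's exact test called 4 genes, or 0.815%. Its calls also needed a 2-fold gap, so none of the 5 could be called whatever its p. The dispersion came from the 2 libraries treated as 1 group, so it includes the gap under test. The unadjusted p of edgeR's exact test was 0.554 for Mir652 and 0.637 for Mir139, and 29 of the 491 genes were under 0.05 before adjustment.

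**Figure D4:**
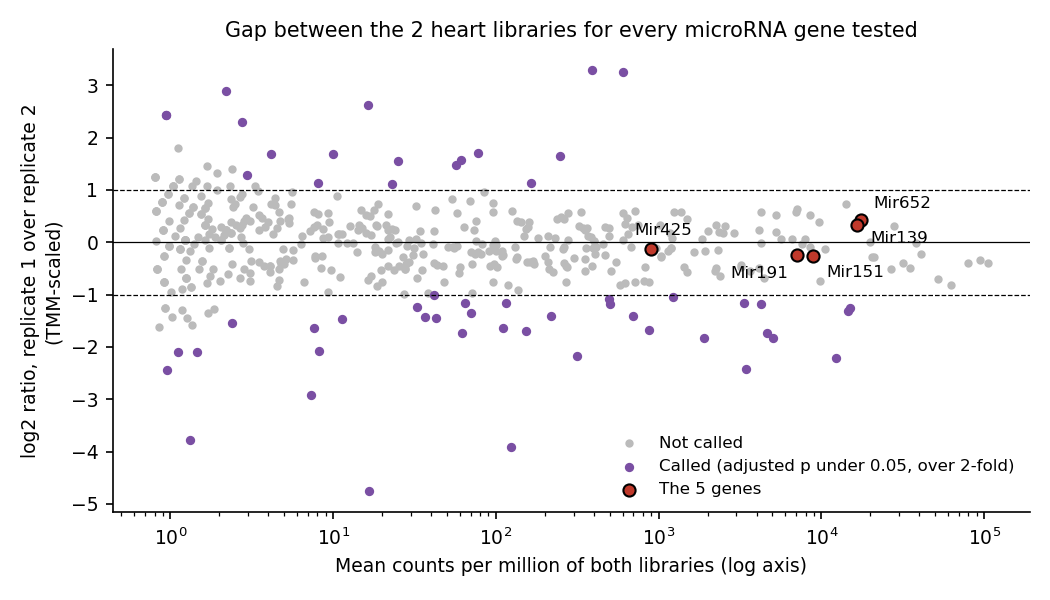
TMM-scaled log2 ratio of replicate 1 over replicate 2 against mean CPM (log axis) for the 491 microRNA genes tested, with called genes in purple, other genes in grey and the 5 genes in red; dashed lines mark a 2-fold gap. All 5 lie inside the dashed lines, with Mir652 and Mir139 above 0 and Mir151, Mir191 and Mir425 below 0 under this scaling but above 0 with total counts.

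Unlike these log2 ratios, the share of a gene in a pair is the same under every scaling. Each of the 10 pairs among the 5 genes was compared between the libraries with a two-sided Fisher's exact test, adjusted over the 10 pairs. Because counts were high, 9 of the 10 pairs passed an adjusted p of 0.05, and the sizes of the differences say more than the p-values.

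Mir652 made up 51.7% of its sum with Mir139 in replicate 1 (exact 95% interval 51.5 to 51.9) and 50.2% in replicate 2 (49.9 to 50.4). In replicate 2 the interval included equal shares, so the order of the top pair was not detectable there even at counting error. The share differed by 1.48 percentage points between the hearts, so both genes were higher in replicate 1 by nearly the same factor.

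Against the other 3 genes, Mir652 and Mir139 had clearly larger shares in replicate 1. Mir652 made up 70.4% of its sum with Mir151 in replicate 1 and 59.8% in replicate 2, a difference of 10.6 points. It made up 74.9% of its sum with Mir191 in replicate 1 and 65.3% in replicate 2. For Mir139 these shares were 69.0% in replicate 1 and 59.6% in replicate 2 with Mir151, and 73.6% and 65.2% with Mir191. With Mir425, Mir652 made up 95.8% and 93.9% in replicates 1 and 2, and Mir139 95.5% and 93.9%. Shares this high move by few points, so the count ratios are given too. Mir652 held 22.7-fold the counts of Mir425 in replicate 1 and 15.4-fold in replicate 2, and Mir139 21.2-fold and 15.3-fold. For Mir652 over Mir191 the ratios were 2.99 in replicate 1 and 1.89 in replicate 2.

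Mir151 and Mir191, on different chromosomes, kept nearly the same ratio. Mir151 made up 55.6% of the sum in replicate 1 (exact 95% interval 55.3 to 55.9) and 55.9% in replicate 2 (55.5 to 56.2), a difference of −0.244 points that did not pass the test (exact adjusted p = 0.283). With 2 libraries this says nothing of a link between the genes.

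Mir191 and Mir425 lie in the same long non-coding RNA gene but differed widely in level. Mir191 made up 88.4% of their sum in replicate 1 (exact 95% interval 88.1 to 88.7) and 89.1% in replicate 2 (88.8 to 89.4), which is 7.61-fold more counts than Mir425 in replicate 1 and 8.19-fold more in replicate 2. The difference of −0.732 points passed the test on counting noise (exact adjusted p = 0.000377). Mir151 made up 90.5% of its sum with Mir425 in replicate 1 and 91.2% in replicate 2, a difference of similar size (exact adjusted p = 4.85e-05).

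**Figure D5:**
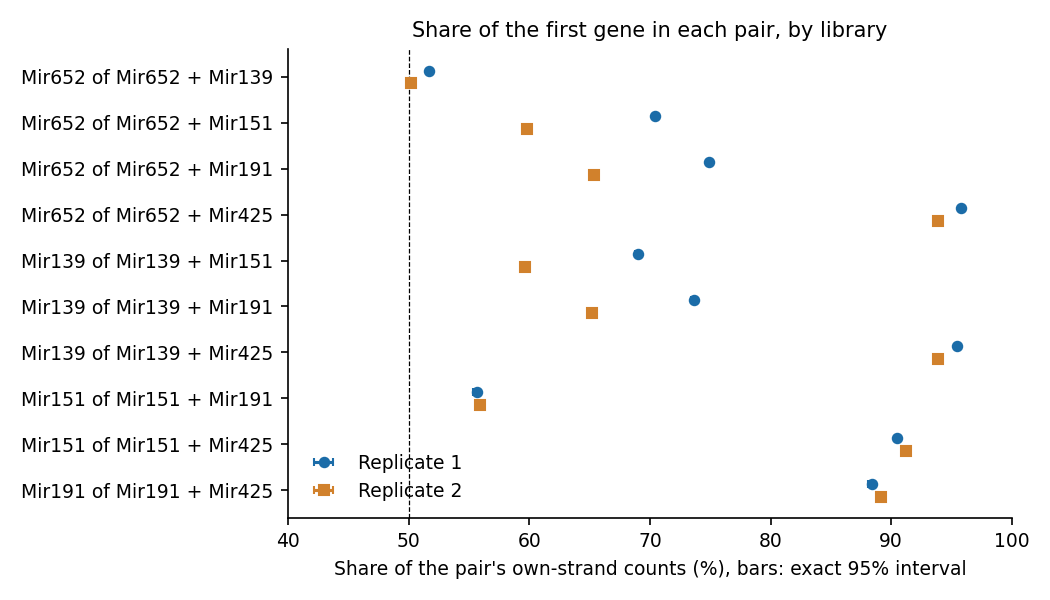
Share of the first gene in the summed own-strand counts of each of the 10 pairs (%), for replicate 1 (blue circles) and replicate 2 (orange squares) with exact 95% intervals, which are mostly narrower than the symbols; the dashed line marks equal shares. Pairs that set Mir652 or Mir139 against Mir151 or Mir191 moved by 8.47 to 10.6 points between the hearts, and the other pairs by less than 2 points. Shares near the right edge move by few points even where the count ratio changes. Mir652 held 22.7-fold the counts of Mir425 in replicate 1 and 15.4-fold in replicate 2.

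To place the Mir191 and Mir425 pair, neighbouring detected genes on the same strand within 10 kb of each other were listed, which gave 113 pairs, many of them sharing a gene. The log2 ratios of replicate 1 over replicate 2 differed by 0.11 between Mir191 and Mir425, against a median of 0.51 over the pairs, and 13 pairs had a smaller difference. Their levels differed by 7.88-fold, against a median of 5.38-fold, and 64 pairs had a smaller gap. Both values are a description of this pair.

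Genes whose gap between the hearts was most like that of each of the 5 were found among the genes with at least 1000 CPM in each library, by the nearest TMM-scaled log2 ratio over the 2 libraries. For Mir652 (0.42) they were Mir484 (0.44) and Mir30e (0.38), and for Mir139 (0.33) Mir483 (0.33) and Mir324 (0.31). For Mir151 (−0.26) they were Mir34a (−0.26) and Mir191 (−0.24), for Mir191 Mir34a and Mir23b (−0.23), and for Mir425 (−0.14) Mir532 (−0.15) and Mirlet7e (−0.13).

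Mir151 belongs to the mir-28 precursor family, whose other mouse genes are Mir28a, Mir28b, Mir28c and Mir708. Mir28a, in intron 8 of Lpp, the gene of a protein of focal adhesions, held 57705 counts or 8992 CPM in replicate 1 and 38977 counts or 6884 CPM in replicate 2. Its mean of 7938 ± 1491 CPM (SD, n = 2), at rank 27, came close to that of Mir151, and Mir151 exceeded it in both libraries. Mir708, in intron 1 of Tenm4, the gene of a teneurin cell adhesion protein, was far lower at 166 CPM in replicate 1 and 176 CPM in replicate 2. Mir28b held 11 and 4 counts and Mir28c 3 and 5 counts in replicates 1 and 2, at or near the floor of 3 counts. The mature 5p strands of Mir28a and Mir708 share a seed and differ in the bases after it.
mmu-miR-28a-5p: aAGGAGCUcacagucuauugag
mmu-miR-708-5p: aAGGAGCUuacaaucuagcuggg

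Of the 4 other family genes, 3 had enough counts to be tested between the hearts and none was called, beside the 11.2% called over all genes. The log2 ratio of replicate 1 over replicate 2 was 0.05 for Mir28a and −0.42 for Mir708, which became 0.39 and −0.09 with total-count scaling.

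Hairpins inside protein-coding genes were a large class, to which Mir652, Mir139 and Mir151 belong. Of the 2202 genes, 969 lay wholly within a protein-coding gene on the same strand, and 186 of these were detected. Their share of the own-strand counts was 56.5% in replicate 1 and 56.4% in replicate 2. Mir652, Mir139 and Mir151 took places 7, 8 and 14 among the 186 by mean CPM, and together made up 9.10% of the class's counts in replicate 1 (exact 95% interval 9.07 to 9.13) and 6.12% in replicate 2 (6.09 to 6.14). The median of the 186 was 42.2 CPM, against 98.1 CPM for the 187 detected genes outside the class.

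Mir191 and Mir425 fell in a smaller class, that of genes with no protein-coding host but with a long non-coding RNA around them on the same strand. It had 164 genes, of which 70 were detected, with 15.3% of all counts falling on it in replicate 1 and 14.5% in replicate 2. Mir191 and Mir425 together made up 5.40% of the counts of that class in replicate 1 (exact 95% interval 5.35 to 5.44) and 5.31% in replicate 2 (5.27 to 5.36).

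A list of 50 other microRNA genes known from protein-coding hosts was set beside the 5. It was chosen with earlier results of these data known, so its detection and levels do not describe the whole class. In that class 186 of 969 genes were detected, and the median of the 186 was 42.2 CPM. All 50 lay inside a protein-coding gene on the same strand and all were detected, with a median of 2234 CPM. The 5 highest were Mir378a in Ppargc1b, Mirlet7g in Wdr82, Mir126a in Egfl7, Mir23b in 2010111I01Rik and Mir335 in Mest, from 105623 down to 31843 CPM, all above Mir652. The median log2 ratio of replicate 1 over replicate 2 was −0.14 in the list and −0.14 in the 5 genes, against −0.02 over all genes tested. Under total-count scaling all these medians moved up by 0.33, above 0.

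Between the hearts, 6 of the 50 were called (12%, beside 11.2% over all genes), 1 higher in replicate 1 and 5 higher in replicate 2. Mir185 in Tango2 held 1122 CPM in replicate 1 and 92.9 CPM in replicate 2 (log2 ratio 3.26). Mir26a-2 in Ctdsp2 held 19.0 and 229 CPM (−3.92), Mir140 in Wwp2 1318 and 5578 CPM (−2.41) and Mir499 in Myh7b 2653 and 7487 CPM (−1.83) in replicates 1 and 2. Mir340 in Rnf130 (−1.63) and Mir27b in 2010111I01Rik (−1.18) were also higher in replicate 2, but Mir27b came to −0.84, inside 2-fold, with total-count scaling. The edgeR exact test with an estimated dispersion called Mir185 and Mir26a-2 of these 6. The list does not hold every called gene inside a protein-coding gene. Over that whole class the binomial test called 26 of the 280 genes tested, against 29 of 211 outside it.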

How the data were processed

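Raw read counts per microRNA gene were deposited by the authors, 1 table for each of the 2 heart libraries, with no normalization. Descriptions deposited with the tables give mm10 as build and GENCODE M21 as annotation. For the aligner, counter and trimming, no source used here names a tool. Each table has 3 count columns (both strands, own strand, opposite strand) and 4 summary entries, which were kept out of library sizes. The own-strand column was used. Reads mapped to several places are in no gene's count.

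CPM, ranks, Clopper-Pearson intervals, Fisher's exact tests and two-sided exact binomial tests were computed from these counts (R 4.3.3, edgeR 4.0.16, Python 3.11.15, scipy 1.17.1, pandas 2.3.3, numpy 2.4.6, matplotlib 3.10.9). TMM factors were 1.12 and 0.891 for replicates 1 and 2, genes with at least 10 counts in the sum were tested, and 0.5 was added in log2 ratios. A quasi-likelihood fit could not be made with 1 group of 2 libraries. Very small p-values were written as 1e-300. Hairpins were folded with RNAfold (ViennaRNA 2.7.2). Counts differed by more than sampling noise (chi-square 709 per degree of freedom), so the libraries were counted separately. On simulated counts of 489 genes with counting noise only, the test called 50 of 50 genes at each of 3-, 5- and 10-fold, 2 of 50 at 1.5-fold and 2 of 289 unchanged genes. No molecular identifiers are named, so intervals and floors cover counting error only. The binomial and Fisher p-values set the gap between these libraries against counting noise alone and do not measure the spread between hearts.

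The 5 genes, the lists and the tests were chosen with earlier results of these data known. Beside the 5 genes, the text names the other mir-28 family genes, the genes next in rank, the nearest log2 ratios, and from the host list the 5 highest and every called gene. Arms and variants of the CAST parent were not examined.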

Additional observations from a re-analysis of the deposited data

How the results depend on the processing

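No paired analysis was possible because the libraries form 1 group. Scaling by total counts turned the direction of the log2 ratio of Mir151 (0.074), Mir191 (0.088) and Mir425 (0.194). Every other alternative kept each of the 5 ratios on its side of 0 and uncalled; Mir191 had no value in the column of both strands together. The number of genes called was 4 with edgeR's exact test and an estimated dispersion, 35 with a fixed biological coefficient of variation of 0.2, and 48 to 61 under the others. In the column of both strands together Mir191 was at 0 CPM and 0% of its sum with Mir425, Mir652, Mir139 and Mir151 were each 100% of their sum with Mir191, and Mir151 held 11157 CPM and Mir425 1124 CPM. With all reads of a library as the denominator the levels were 7565 (Mir652), 7229 (Mir139), 3861 (Mir151), 3065 (Mir191) and 389 (Mir425) per 1000000. Without the 10 most abundant genes in the denominator they were 39905, 38192, 20631, 16375 and 2076 in that order. Both changes follow from the denominators.

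Leaving out a library gave 12959 to 21825 CPM for Mir652, 12858 to 20408 for Mir139, 8705 to 9163 for Mir151, 6875 to 7309 for Mir191 and 840 to 961 for Mir425. The shares within pairs then ran from 50.2% to 51.7% (Mir652 with Mir139), 59.8% to 70.4% (Mir652 with Mir151), 65.3% to 74.9% (Mir652 with Mir191), 93.9% to 95.8% (Mir652 with Mir425), 59.6% to 69.0% (Mir139 with Mir151), 65.2% to 73.6% (Mir139 with Mir191), 93.9% to 95.5% (Mir139 with Mir425), 55.6% to 55.9% (Mir151 with Mir191), 90.5% to 91.2% (Mir151 with Mir425) and 88.4% to 89.1% (Mir191 with Mir425). The detected genes inside protein-coding genes numbered 192 to 227 and their class held 56.4% to 56.5% of the counts. With at least 100 counts in each library 110 were detected. Hosts on either strand raised the share to 61.6%, and long non-coding hosts, added after seeing the data, to 71.4%. A stretch of 18 nt of the Mir652 hairpin also matched Fitm2. The search of the genome was not run, and annotated transcripts were searched in its place.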
